A study of Nicotiana benthamiana with 28 samples.

Results

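The line pRXEG1:RXEG1synΔCT-2, called ΔCT line 2 here, was compared with rxeg1, the knockout in which the labels place the construct. The compared libraries were all 4 of ΔCT line 2 and all 4 of rxeg1, 8 of the 28 libraries in the series. They were chosen by genotype alone and not by any measured value. The seedlings were Nicotiana benthamiana, a wild relative of tobacco and a common model plant of immunity research, 12 days old, and each group was treated for 3 h. The ΔCT line 2 seedlings had the rxeg1 knockout and the RXEG1synΔCT construct, by its name behind the RXEG1 promoter, with 2 libraries after the XEG1 protein and 2 after mock treatment. The rxeg1 seedlings had the same knockout and no construct, again with 2 XEG1 and 2 mock libraries. The titles call the control EV where the treatment label has mock, and the 2 terms were read as 1 control. ΔCT line 2 is 1 line, and the labels do not say from how many transformants it came or how many seedlings were pooled. They also do not say that the replicates were grown separately, so a p-value here reflects the spread among these libraries alone. The other 20 libraries, from wild type, sobir1/sobir1-like and 3 further construct lines in the rxeg1 knockout, served here only to define gene lists and to set levels beside those of the compared genotypes. Of these lines, pRXEG1:RXEG1synΔCT-1 is called ΔCT line 1 and pRXEG1:RXEG1synΔ90-95/Q786AK791AΔCT-1 the Δ90-95/Q786AK791A line.

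RXEG1 is a receptor-like protein at the plant cell surface that recognises XEG1, a glycoside hydrolase secreted by the oomycete Phytophthora sojae. Receptor-like proteins have no kinase domain of their own and signal together with the receptor kinases SOBIR1 and BAK1. In plants with the complete receptor, recognition of XEG1 starts pattern-triggered immunity, with broad changes in transcript levels. The comparison asks which transcripts distinguish the construct line from the knockout that it was made in, whether or not XEG1 was given.

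Levels were TPM, in which reads are divided by gene length and each library is set to a total of 1e+06, so the number of reads behind a value is unknown. Differences are ΔCT line 2 minus rxeg1 on the log2(TPM + 1) scale, which understates those of genes of low level. Of 59814 listed genes, 36713 (61.4%) averaged 1 TPM or more across the 8 libraries and were tested with limma, a moderated linear model across all genes. A gene was called at a Benjamini-Hochberg adjusted p under 0.05. The files do not pair their identifiers, which begin with Niben101, with gene names. The levels of RXEG1, of the construct and of seedling tissue markers were therefore not checked here, no gene is given a role, and groups by function were not examined. Genes of this allotetraploid species often have near-identical copies, and the sources used here do not say how shared reads were assigned. In bulk seedlings, fewer cells of a type and less RNA per cell cannot be told apart.

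The libraries of the parent did not lie together. Both rxeg1 libraries numbered 1 stood apart from the other 6, with 34883 genes at 1 TPM or more after XEG1 and 34866 in mock, against 36523 to 36926 in the other 6. They stood apart from these 6 and not from the whole series. Elsewhere in the series, libraries numbered 1 had 36905 and 36910 such genes in ΔCT line 1 and 33563 to 35662 in the other 4 genotypes. On the first principal component of the tested genes, which held 52.8% of the variance, these libraries had scores of -71.6 after XEG1 and -73.5 in mock, and the other 6 lay between 18.8 and 28.6. The second component held 15.4% of the variance. On it all 4 ΔCT line 2 libraries were positive, from 4.57 to 33.6, while rxeg1 scored -39.4 after XEG1 and -29.3 in mock in the libraries numbered 2, and -1.80 and -0.50 in those numbered 1.

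**Figure D1:**
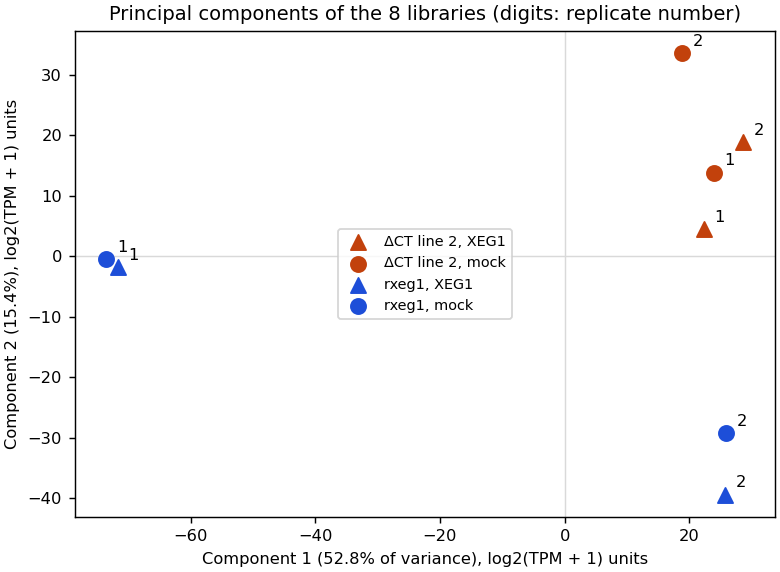
Principal components of the 8 libraries over 36713 tested genes. Each point is 1 library, coloured by genotype and shaped by treatment, with its replicate number beside it, and the axes are component scores in log2(TPM + 1) units. Both rxeg1 libraries numbered 1 lie at scores of -71.6 and -73.5 on component 1, and the ΔCT line 2 libraries lie together on the positive side of both components.

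Pairs of libraries show the same layout. Any ΔCT line 2 library differed at least 2-fold from an rxeg1 library numbered 1 in 2329 to 3092 genes, and from an rxeg1 library numbered 2 in only 485 to 1036 genes. Libraries of ΔCT line 2 with different numbers differed in 267 to 638 genes. Libraries of rxeg1 with different numbers differed in 2693 to 2878 genes, but its mock and XEG1 libraries of 1 number differed in 170 to 189. The deviations of the mock and XEG1 libraries from their group means correlated at -0.0056 across the 36713 genes in ΔCT line 2 and at 0.73 in rxeg1. The second value means that same-numbered rxeg1 libraries shared most of their deviation, which the tests below treat as independent unless stated.

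With treatment as a covariate, limma called 5 genes, 0.0136% of those tested, of which 2 were higher and 3 lower in ΔCT line 2 than in rxeg1. The higher genes were 0.00545% and the lower genes 0.00817% of those tested. An unadjusted p under 0.05 was reached by 5264 genes, 3202 higher (8.72%) and 2062 lower (5.62%). After median-ratio scaling of the libraries these were 2751 higher and 3441 lower, so that higher genes made up 44.4% of them, against 60.8% in TPM as deposited. The median difference over all genes was 0.09 on the log2 scale in TPM as deposited and -0.0019 after scaling. Only 199 genes had a fitted difference of 2-fold or more, 87 higher and 112 lower. The median standard error was 0.16, and the median 95% confidence interval reached 0.37 to either side of the estimate.

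Niben101Scf01070g04015 had the largest positive difference among the called genes. It held 3.03 and 2.84 TPM after XEG1 and 5.39 and 5.76 TPM in mock in ΔCT line 2, against a listed 0 in both XEG1 libraries and a listed 0 and 0.193 TPM in the mock libraries of rxeg1. The groups did not overlap, and the gene was close to absent from the lists of all 4 rxeg1 libraries. The means were 4.25 ± 1.53 TPM in ΔCT line 2 and 0.0481 ± 0.0963 TPM in rxeg1 (SD, n = 4 libraries over both treatments). The log2 difference was 2.28 with a standard error of 0.17 (limma, adjusted p 0.00392). Elsewhere in the series it averaged 4.13 ± 2.64 TPM in wild type and between 0.479 and 1.57 TPM in the other 4 genotypes (n = 4 each). Its level in ΔCT line 2 was thus in the range of wild type, from 0.798 to 6.69 TPM, and every wild-type library lay above every rxeg1 library.

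The second higher gene, Niben101Scf04764g10018, was named because only 2 genes were higher, and it lies outside the rule for naming genes by its low mean level. It held 2.65 and 2.92 TPM after XEG1 and 2.57 and 2.95 TPM in mock in ΔCT line 2, and was listed at 0 in all 4 rxeg1 libraries (limma, adjusted p 0.00392). No fold is given against libraries listed at 0. It was also listed at 0 in 6 of the other 20 libraries, whose highest value was 4.33 TPM, and averaged 2.81 ± 1.92 TPM in ΔCT line 1 (SD, n = 4). Among all 59814 genes, 20 were listed at 0 in all 4 rxeg1 libraries and above 0 in all 4 of ΔCT line 2. This gene was the only 1 of the 20 with at least 1 TPM in each ΔCT line 2 library. The next in mean level, Niben101Scf00739g00002, had 0.408 and 6.31 TPM after XEG1 and 0.985 and 0.164 TPM in mock. In the opposite direction, 17 genes were listed at 0 in all 4 ΔCT line 2 libraries and above 0 in all 4 of rxeg1, and 0 of them had 1 TPM in each rxeg1 library.

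The most abundant called gene, Niben101Scf01084g05013, was lower in ΔCT line 2. It held 113 and 74.5 TPM after XEG1 and 108 and 97.7 TPM in mock in ΔCT line 2, against 266 and 202 TPM after XEG1 and 317 and 279 TPM in mock in rxeg1. The highest ΔCT line 2 library lay well below the lowest of rxeg1. Its log2 difference was -1.42 with a standard error of 0.15 (limma, adjusted p 0.0380), from means of 98.5 ± 17.3 TPM in ΔCT line 2 and 266 ± 47.8 TPM in rxeg1 (SD, n = 4). The level in ΔCT line 1, 93.0 ± 12.3 TPM, and in the Δ90-95/Q786AK791A line, 106 ± 23.1 TPM, lay near that of ΔCT line 2. The remaining construct line had 261 ± 170 TPM, sobir1/sobir1-like 187 ± 36.6 TPM and wild type 175 ± 129 TPM. Wild type was split by treatment, with 66.5 and 77.8 TPM after XEG1 and 216 and 338 TPM in mock. Its lowest XEG1 library lay below those of ΔCT line 2, and both mock libraries lay above all of them.

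Niben101Scf07926g01002 held 3.25 and 2.85 TPM after XEG1 and 2.96 and 3.53 TPM in mock in ΔCT line 2, against 10.5 and 13.4 TPM after XEG1 and 8.94 and 9.02 TPM in mock in rxeg1. The 4 ΔCT line 2 values lay within 1 TPM of each other and far under all rxeg1 values. The log2 difference was -1.45 with a standard error of 0.15 (limma, adjusted p 0.0380). The gene averaged 2.47 ± 0.878 TPM in ΔCT line 1 and 1.49 ± 0.813 TPM in the Δ90-95/Q786AK791A line, while wild type had 7.80 ± 1.83 TPM, the remaining construct line 7.04 ± 3.54 TPM and sobir1/sobir1-like 4.92 ± 1.88 TPM (SD, n = 4).

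The third lower gene, Niben101Scf02526g00002, lies outside the rule, which names 2 genes each way, and was added after its values were seen. It held 22.8 and 17.5 TPM after XEG1 and 19.5 and 23.1 TPM in mock in ΔCT line 2, against 51.1 and 62.7 TPM after XEG1 and 57.0 and 50.6 TPM in mock in rxeg1. The groups did not overlap and neither varied much with treatment. The log2 difference was -1.38 with a standard error of 0.13 (limma, adjusted p 0.0174). Its mean of 20.7 ± 2.70 TPM in ΔCT line 2 was the lowest among the 7 genotypes, of which ΔCT line 1 came next with 30.8 ± 8.07 TPM (SD, n = 4).

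**Figure D2:**
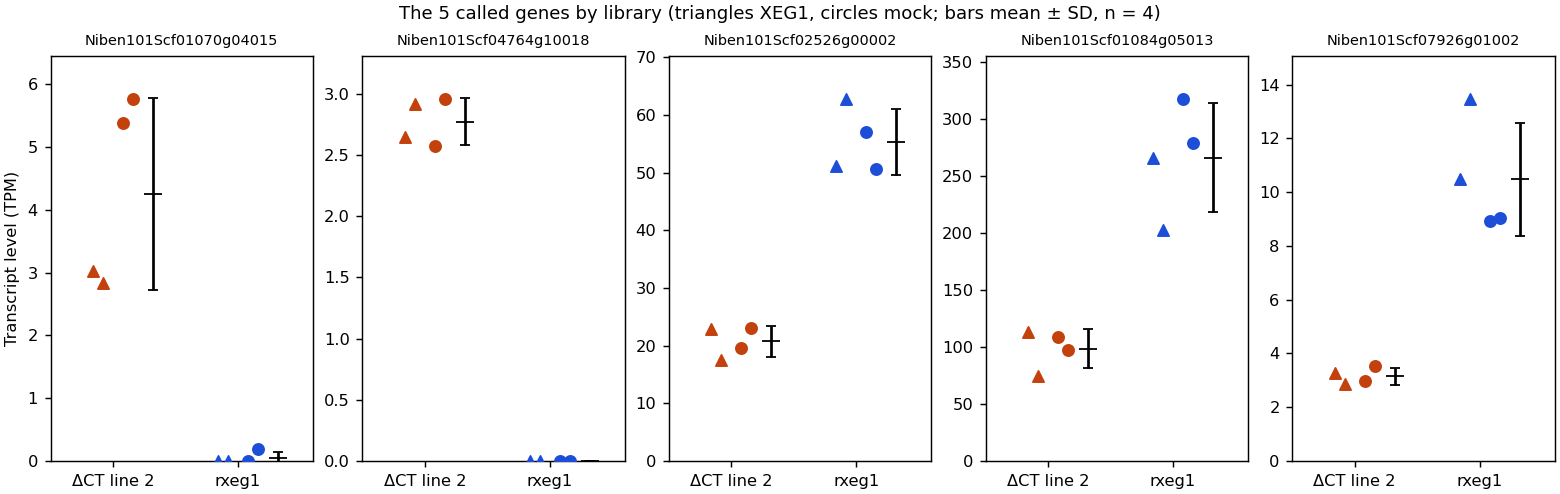
Transcript levels in TPM, from 0, of the 5 called genes in the 4 ΔCT line 2 libraries and the 4 rxeg1 libraries. Triangles are XEG1 and circles mock libraries, and bars show the mean ± SD of 4. In each gene the 4 values of ΔCT line 2 lie all above or all below the 4 of rxeg1.

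The calls rest on treating the mock and XEG1 library of a number as independent. When mock and XEG1 were averaged within each number, 2 against 2, limma called 0 genes, while 1585 had an unadjusted p under 0.05. With an estimated correlation of 0.61 between such libraries it called 0 genes, with 1981 at that level. The adjusted p of the 5 genes ran from 0.0625 to 0.453 with that estimated correlation. The exact two-sided permutation test of each gene gave p = 0.0556, the smallest that its 36 arrangements can give. With 1 library left out, limma called 0 genes without ΔCT line 2 mock replicate 2, with 3024 at an unadjusted p under 0.05, and 3 without ΔCT line 2 XEG1 replicate 2 or mock replicate 1. It called 8 without rxeg1 XEG1 replicate 2 and 11 without rxeg1 mock replicate 2. Over these 8 fits the higher genes Niben101Scf01070g04015 and Niben101Scf04764g10018 passed in 7, Niben101Scf02526g00002 in 5, Niben101Scf01084g05013 in 3 and Niben101Scf07926g01002 in 2. The sizes of the differences were similar within each replicate number, which a call over all 8 libraries favours. For Niben101Scf01070g04015 the log2 difference was 2.22 within number 2 and 2.34 within number 1. Of the 3 lower genes, Niben101Scf07926g01002 had -1.53 within number 2 and -1.38 within number 1, and Niben101Scf01084g05013 had -1.47 within number 2 and -1.38 within number 1.

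Many more genes than those called did not overlap between the 2 genotypes. Same-numbered rxeg1 libraries shared most of their deviation, so the 4 are not independent values, and non-overlap is reached more easily. In 3772 genes (10.3%) the 4 ΔCT line 2 libraries and the 4 rxeg1 libraries did not overlap, 2311 of them higher (6.29%) and 1461 lower (3.98%) in ΔCT line 2. Most of these differences were small, since 49 of the higher and 54 of the lower genes reached 2-fold. The counts are of TPM as deposited and were not redone after median-ratio scaling, which reversed the lean of the unadjusted counts above. Genes of low level leaned to higher values in ΔCT line 2 and abundant genes to lower ones. Among the 11706 genes averaging 1 to 5 TPM, 7.14% did not overlap and were higher, and 1.53% lower. Among the 1693 genes at 100 TPM or more these shares were 6.85% and 11.05%.

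This dependence on level differed between the replicate numbers. In the lowest class the median log2 difference was -0.04 within number 2 and 0.35 within number 1, and in the class at 100 TPM or more it was -0.0092 within number 2 and -0.13 within number 1. The genes from 5 to 20 TPM had medians of -0.09 within number 2 and 0.29 within number 1. Within number 2 the median thus stayed within 0.1 of 0 in all 4 classes. Within number 1, where the rxeg1 libraries stood apart among the compared libraries, it fell with level. 

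**Figure D3:**
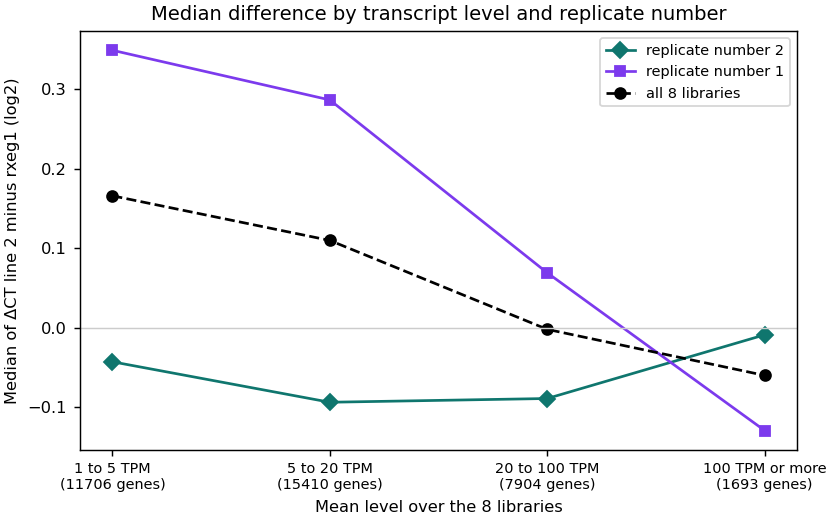
Median log2 difference, ΔCT line 2 minus rxeg1, in 4 classes of mean level over the 8 libraries, for replicate number 2, replicate number 1 and all 8 libraries. The median runs from 0.35 to -0.13 within number 1 and stays between -0.09 and -0.0092 within number 2.

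The difference between the genotypes itself depended on the replicate number for 9533 genes (26%), tested as an interaction with mock and XEG1 libraries of a number taken as replicates. In 8937 of them the difference was lower within number 2 than within number 1, and in 596 it was higher. The same fit called 0 genes (0%) between the numbers within ΔCT line 2, with 2014 at an unadjusted p under 0.05, and 15089 genes (41.1%) within rxeg1. Of the genes called within rxeg1, 13299 were higher in number 2 than in number 1. These counts are of TPM as deposited and were not redone after median-ratio scaling. The scaling factors were 0.88 after XEG1 and 0.85 in mock in the rxeg1 libraries numbered 1, and 1.00 to 1.09 in the rest. Over all tested genes the median of the interaction was -0.31, so the counts include a shift shared by many genes. Across the 36713 genes, the differences within number 2 and within number 1, which share no library, had a Pearson r of 0.16 and the same sign in 47.1% of genes. The difference was positive in 36.7% of genes within number 2 and in 71.2% within number 1. Such opposite leans in TPM as deposited by themselves lower the share of equal signs, which was not redone after scaling. The differences after XEG1 and in mock, which also share no library but hold the same-numbered rxeg1 libraries, had an r of 0.58 and the same sign in 75.7%.

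**Figure D4:**
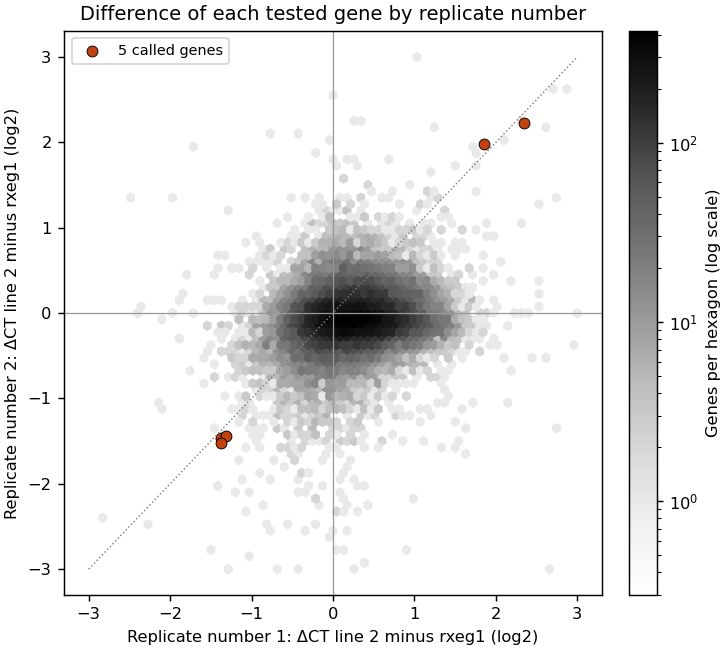
Log2 difference, ΔCT line 2 minus rxeg1, of each tested gene within replicate number 1 (horizontal) and within number 2 (vertical). Shading gives the number of genes per hexagon on a log scale, genes beyond 3 on either axis are drawn at the edge, and the dotted line marks equal differences. Most of the cloud extends to positive values along the horizontal axis only. The 5 called genes lie near the dotted line, which their call over both numbers favours.

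Each number was then fitted on its own, with 2 libraries of each genotype, a mock and an XEG1 library, and treatment as a covariate. Such a fit has few libraries beyond its fitted terms to estimate the spread from. The counts are of TPM as deposited and were not redone after median-ratio scaling. Within number 2 limma called 648 genes (1.77%), 120 higher and 528 lower in ΔCT line 2. Within number 1 it called 12628 genes (34.4%), 10765 higher and 1863 lower. These fits hold the shared deviations described above, so their p-values take less error into account than separately grown replicates would show. Called in both numbers and in the same direction were 144 genes, 50 higher (0.136%) and 94 lower (0.256%) in ΔCT line 2, while 23 were called in opposite directions. The 50 were 41.7% of the higher calls within number 2, while 29.3% of all tested genes were called higher within number 1. They were 0.464% of the higher calls within number 1, against 0.327% of all tested genes called higher within number 2. The 94 were 17.8% of the lower calls within number 2, while 5.07% of all tested genes were called lower within number 1. They were 5.05% of the lower calls within number 1, against 1.44% of all tested genes called lower within number 2. All 5 genes called over the 8 libraries are among the 144, which were called on the same libraries. With both rxeg1 libraries numbered 1 left out, limma called 810 genes (2.21%), 251 higher and 559 lower in ΔCT line 2. With both numbered 2 left out, it called 16121 genes (43.9%), 13411 higher and 2710 lower.

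The 50 higher genes had a median log2 difference of 1.00 within number 2 and 0.91 within number 1, and the 94 lower genes of -1.10 within number 2 and -0.67 within number 1. In 31 of the 144 the difference was at least 2-fold in each number. All 50 higher genes and 86 of the 94 lower genes had 4 ΔCT line 2 libraries that did not overlap the 4 of rxeg1. Their calls on these same libraries favour this. Of all tested genes, 6.29% did not overlap and were higher, and 3.98% lower. Mean levels over the 8 libraries ran from 1.06 to 387 TPM among the higher genes, with a median of 7.89, and from 1.38 to 220 TPM among the lower genes, with a median of 20.02. The 144 genes lay on 137 scaffolds of the 8386 that hold tested genes, and 6 scaffolds held more than 1.

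Of these genes, the 2 each way with the largest difference in the number where it was smaller, beyond the 5 already given, were looked at further after their values were seen. Niben101Scf01596g04002 held 13.4 and 7.26 TPM after XEG1 and 5.56 and 4.05 TPM in mock in ΔCT line 2, against 0.526 and 1.32 TPM after XEG1 and 0.390 and 1.67 TPM in mock in rxeg1. The groups did not overlap, and the means were 7.57 ± 4.10 TPM in ΔCT line 2 and 0.976 ± 0.617 TPM in rxeg1 (SD, n = 4). Its ΔCT line 2 libraries were above every other library of the series, the nearest of which was a wild-type library with 3.46 TPM. In ΔCT line 1, with the same construct by name, it averaged only 0.484 ± 0.218 TPM.

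Niben101Scf08806g01003 held 3.71 and 4.68 TPM after XEG1 and 3.68 and 2.53 TPM in mock in ΔCT line 2, against 0.199 and 0.650 TPM after XEG1 and 0.622 and 0.596 TPM in mock in rxeg1. The groups did not overlap. ΔCT line 1 resembled rxeg1 in this gene, with 0.661 ± 0.318 TPM, whereas the Δ90-95/Q786AK791A line had 5.44 ± 1.09 TPM and the remaining construct line had 3.07 ± 1.19 TPM (SD, n = 4 each). Wild type ranged from 0.239 to 11.98 TPM and sobir1/sobir1-like averaged 0.427 ± 0.255 TPM.

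Among the lower genes, Niben101Scf00526g00018 held 1.43 and 1.20 TPM after XEG1 and 1.74 and 2.03 TPM in mock in ΔCT line 2, against 5.03 and 10.8 TPM after XEG1 and 4.71 and 9.43 TPM in mock in rxeg1. The groups did not overlap, and the rxeg1 libraries numbered 2 were higher than those numbered 1. Niben101Scf01109g04005 held 9.29 and 8.30 TPM after XEG1 and 13.7 and 16.5 TPM in mock in ΔCT line 2, against 29.7 and 26.8 TPM after XEG1 and 24.0 and 33.4 TPM in mock in rxeg1. This gene also did not overlap between the groups, and it averaged 15.9 ± 3.08 TPM in ΔCT line 1, 29.7 ± 15.4 TPM in the remaining construct line and 10.1 ± 9.32 TPM in wild type (SD, n = 4).

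Gene lists were then defined on the other 20 libraries and their values read in ΔCT line 2 and rxeg1. Each list was drawn with limma at an adjusted p under 0.05, and with a log2 change of at least 1 except for the lists of replicate numbers. A list of 828 genes was higher in ΔCT line 1 than in wild type under mock treatment, with a median log2 difference of 1.18 there. In ΔCT line 2 minus rxeg1 the median over this list was 0.52, with quartiles of 0.40 and 0.66, against 0.09 over all tested genes. It was 0.45 after XEG1 and 0.60 in mock, and 0.37 within number 2 and 0.66 within number 1, where all tested genes had -0.08 and 0.24. The difference was positive in 97.7% of the list, and in 87.9% within number 2, against 64.0% and 36.7% of all tested genes. In 390 genes of this list (47.1%) the libraries did not overlap and ΔCT line 2 was higher, against 6.29% of all tested genes, and in 1 gene it was lower. These 390 were 16.9% of all genes that did not overlap and were higher, so most such genes lay outside the list. Limma called 0 genes of the list over the 8 libraries, which is uninformative with only 5 called in all. At an unadjusted p under 0.05, 579 (69.9%) were higher, against 8.72% of all tested genes. Of the 50 genes called higher in both numbers, 21 (42%) were on this list, which holds 2.26% of all tested genes, and of the 94 called lower, 0 were, a share that such a small list leaves uninformative. Without the rxeg1 libraries numbered 1 the median of the list was 0.32.

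The opposite list held 984 genes lower in ΔCT line 1 than in wild type under mock treatment, with a median of -1.32 there. In ΔCT line 2 minus rxeg1 its median was -0.37, with quartiles of -0.57 and -0.18. It was -0.35 after XEG1 and -0.45 in mock, and -0.35 within number 2 and -0.34 within number 1. In 186 genes (18.9%) the libraries did not overlap and ΔCT line 2 was lower, against 3.98% of all tested genes, and in 2 genes it was higher. These 186 were 12.7% of all genes that did not overlap and were lower. Limma called 3 genes of the list. The called genes Niben101Scf07926g01002 and Niben101Scf01084g05013 belong to this list and were lower in ΔCT line 2. Niben101Scf01070g04015 belongs to it too and was higher in ΔCT line 2. Without the rxeg1 libraries numbered 1 the median was -0.24. Of the 94 genes called lower in both numbers, 39 (41.5%) were on the list, which holds 2.68% of all tested genes.

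By library, the median level of the 828 genes, relative to each gene's mean over the 8 libraries, was 0.21 and 0.19 after XEG1 and 0.20 and 0.43 in mock in ΔCT line 2. In rxeg1 it was -0.45 and -0.06 after XEG1 and -0.45 and -0.07 in mock. All 4 ΔCT line 2 libraries were thus higher, and those of rxeg1 numbered 2 came nearest to them. Wild type lay lowest, from -1.23 to -0.70, and sobir1/sobir1-like from -0.57 to -0.22. For the 984 genes the values were -0.03 and -0.21 after XEG1 and -0.17 and -0.41 in mock in ΔCT line 2, and 0.32 and 0.12 after XEG1 and 0.19 and 0.04 in mock in rxeg1. In both lists ΔCT line 2 mock replicate 2 lay farthest from rxeg1. The Δ90-95/Q786AK791A line was also low in the 984 genes, from -0.74 to -0.36, and lay from 0.07 to 0.50 in the 828. The remaining construct line lay with rxeg1 in both lists, from -0.0053 to 0.32 in the 984 genes and from -0.48 to 0.07 in the 828.

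**Figure D5:**
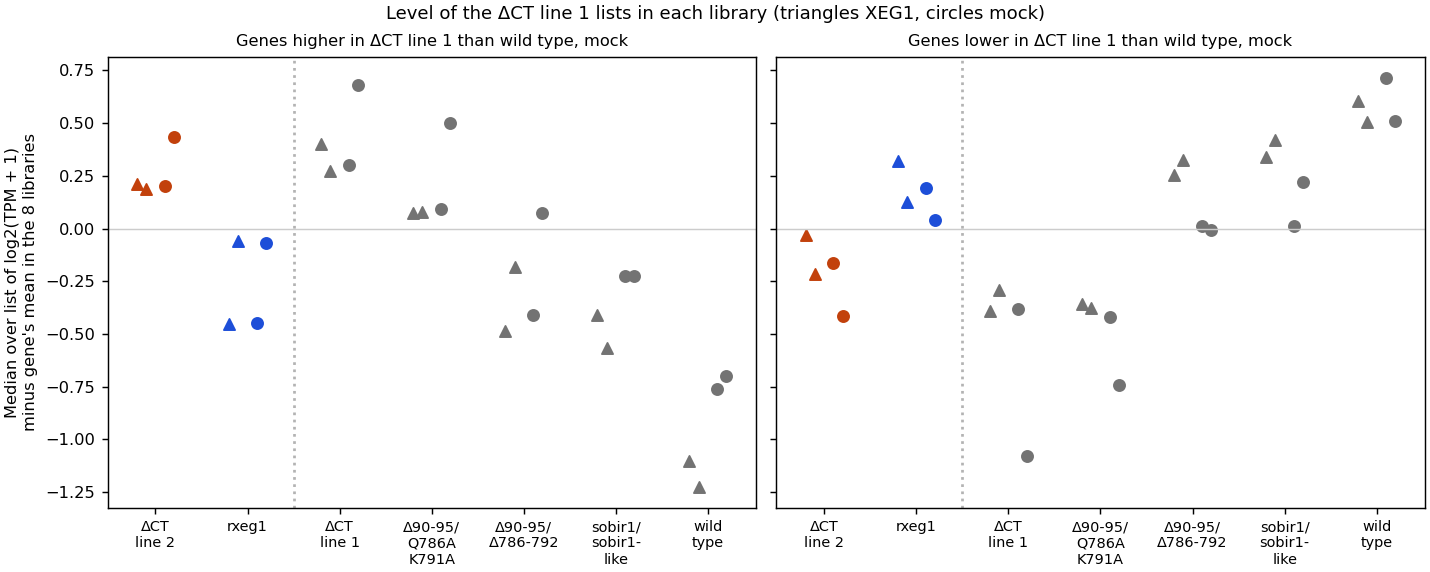
Median over 828 genes higher (left) and 984 genes lower (right) in ΔCT line 1 than in wild type under mock treatment, as log2(TPM + 1) minus the gene's mean over the 8 compared libraries, in each of the 28 libraries. ΔCT line 2 lies above rxeg1 in the left panel and below it in the right panel in all libraries. ΔCT line 1 and wild type chose the lists, so their positions are a description only.

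Genes that responded to XEG1 in wild type did not show a median shift of such size. The 2647 genes higher after XEG1 had a median difference of 0.02 between ΔCT line 2 and rxeg1. At an unadjusted p under 0.05 by limma, 114 (4.31%) were higher and 210 (7.93%) lower. Of all tested genes, 8.72% were higher and 5.62% lower at that level. The list held 0 called genes, which is uninformative with only 5 called in all. The median was -0.13 within number 2 and 0.15 within number 1, so its direction depended on the number. It was 0.10 after XEG1 and -0.08 in mock. The median change with XEG1 over this list was 0.23 in ΔCT line 2 and 0.10 in rxeg1, against 1.84 in wild type, where the list was chosen, and the median difference between the responses was 0.15. The 5560 genes lower after XEG1 in wild type had a median difference of 0.0035 between ΔCT line 2 and rxeg1, -0.10 within number 2 and 0.09 within number 1. They hold 15.1% of the tested genes and 26.4% of those that did not overlap and were lower in ΔCT line 2. Of the 94 genes called lower in both numbers, 47 (50%) were on this list. The list of 984 overlapped both lists of XEG1 response. It shares 332 genes with the list higher after XEG1, 33.7% of the 984 and 12.5% of the 2647, and 344 with the list lower after XEG1, 35.0% of the 984 and 6.19% of the 5560.

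A pair of lists was drawn by replicate number across the other 5 genotypes together. The 2660 genes higher in number 2 than in number 1 there had a median difference of 0.38 between ΔCT line 2 and rxeg1, which was -0.09 within number 2 and 0.85 within number 1. Within rxeg1 they were higher in number 2 than in number 1 by a median of 0.90, while in ΔCT line 2 the median was -0.03. ΔCT line 1, although among the genotypes that chose the list, also changed little. Relative to each gene's mean over the compared libraries, its median level was 0.25 after XEG1 and 0.15 in mock in number 2. In number 1 it was 0.21 and 0.19. The 309 genes lower in number 2 had a median of -0.26 between ΔCT line 2 and rxeg1, with -0.11 within number 2 and -0.42 within number 1. The lists of ΔCT line 1 and of the numbers overlapped in part. Of the 828 genes higher in ΔCT line 1, 72 (8.70%) were on the first list, which holds 7.25% of all tested genes and of which these are 2.71%. Of the 984 genes lower in ΔCT line 1, 55 (5.59%) were on the second, which holds 0.842% of all tested genes and of which these are 17.8%.

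The comparisons within 1 treatment had fewer libraries and called few genes. In mock, limma called 3 genes (0.00817%), 2 higher and 1 lower, with 2128 at an unadjusted p under 0.05. Among the higher ones was Niben101Scf01070g04015, which was called over both treatments and had a mock log2 difference of 2.59 (adjusted p 0.0278). The others were Niben101Scf05516g04022, with 6.06 and 7.12 TPM in the ΔCT line 2 mock libraries and a listed 0 in both of rxeg1 (adjusted p 0.0278), and Niben101Scf02240g09006, listed at 0 in both ΔCT line 2 mock libraries, against 10.4 and 14.8 TPM in the rxeg1 mock libraries (adjusted p 0.0304). Limma called 0 genes in mock without rxeg1 mock replicate 1 or 2 and without ΔCT line 2 mock replicate 1, XEG1 replicate 1 or XEG1 replicate 2, with 1526 to 6170 genes at an unadjusted p under 0.05. It called 1 without ΔCT line 2 mock replicate 2, 5 without rxeg1 XEG1 replicate 1 and 6 without rxeg1 XEG1 replicate 2.

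After XEG1 limma called 4 genes (0.0109%), 3 higher and 1 lower, with 1902 at an unadjusted p under 0.05. All 4 were listed at 0 in both XEG1 libraries of 1 genotype. Niben101Scf10440g00024 had 51.0 and 48.3 TPM in the ΔCT line 2 XEG1 libraries and a listed 0 in those of rxeg1 (adjusted p 8.0e-06). Niben101Scf00033g07004 had 8.88 and 12.0 TPM in the ΔCT line 2 XEG1 libraries and a listed 0 in those of rxeg1 (adjusted p 0.00267). Niben101Scf04276g01015, named because the called genes were only 4, had 5.84 and 6.15 TPM in the ΔCT line 2 XEG1 libraries and a listed 0 in those of rxeg1 (adjusted p 0.0388). Niben101Scf02287g01008 was listed at 0 in both ΔCT line 2 XEG1 libraries, against 33.4 and 27.3 TPM in those of rxeg1 (adjusted p 1.0e-04). Without rxeg1 XEG1 replicate 1 limma called 10 genes after XEG1, and without either rxeg1 mock library 9.

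The response to XEG1 differed between ΔCT line 2 and rxeg1 in 4 genes (0.0109%), 2 with a higher and 2 with a lower change in ΔCT line 2, with 465 at an unadjusted p under 0.05. They were Niben101Scf10440g00024, Niben101Scf00033g07004, Niben101Scf02287g01008 and Niben101Scf05516g04022, and each was listed at 0 in both libraries of 1 group. Niben101Scf10440g00024 had 43.6 TPM in both mock libraries of ΔCT line 2, and 54.6 and 54.9 TPM in those of rxeg1, whose XEG1 libraries were at 0. Niben101Scf02287g01008 had 23.3 and 27.3 TPM in the ΔCT line 2 mock libraries, and 33.1 and 27.2 TPM in those of rxeg1. The group at 0 thus had a steady level in the other treatment of its own genotype. A listed 0 can be a failed estimate, and these genes were also at 0 in some of the other 20 libraries. Niben101Scf10440g00024 and Niben101Scf00033g07004 were so in 3 each, and Niben101Scf02287g01008 and Niben101Scf05516g04022 in 2 each. Of the genes called within 1 treatment, Niben101Scf02240g09006 was at 0 in 6 of these 20 libraries and Niben101Scf04276g01015 in 5. Without rxeg1 XEG1 replicate 1 limma called 9 response differences, and without ΔCT line 2 mock replicate 1 it called 1. Response differences had a median standard error of 0.35 on the log2 scale and a median 95% confidence interval that reached 0.79 to either side.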

How the data were processed

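RNA of 12-day-old seedlings was sequenced in 28 libraries, and 8 of them, 4 of ΔCT line 2 and 4 of rxeg1, were compared. HISAT2 2.0.4, an aligner for spliced reads, is named in the submitters' processing notes. Neither the build and annotation nor the tool that computed TPM is given in the sources used here. Values are TPM as the authors deposited them, in a file for each library, and each file was checked to total 1e+06. A combined file was not used. Depth cannot be recovered from TPM, so no depth limit is given.

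Values were analysed as log2(TPM + 1) for the 36713 genes averaging 1 TPM or more across the 8 libraries, with limma 3.58.1 (mean-variance trend, robust shrinkage) in R 4.3.3. Tables were read with data.table (release 1.17.8), and robust fits used statmod 1.5.0. The main model had genotype and treatment terms. A model of 4 group means gave the differences within each treatment and between the responses. A model of genotype by replicate number plus treatment gave the dependence on number. P-values were adjusted by Benjamini-Hochberg over all 36713 genes. Gene lists came from limma on the other 20 libraries. Figures were drawn with matplotlib 3.10.9. The method was tested on simulated data with independent errors. These lack the deviations that same-numbered libraries share, so the test does not cover them.

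The replicate numbers were not taken as pairing the samples, because the labels do not say so and same-numbered libraries of different groups did not all deviate together. Named genes were those with the largest difference among called genes whose libraries did not overlap and whose mean log2(TPM + 1) was above 1, at most 2 each way because identifiers came without names. Genes outside the rule are marked where they appear. Lists by function and tissue markers were not tested for the same reason. The comparison, the lists and the naming rule were chosen with earlier results of these data known. The alternatives were a pseudocount of 0.1 TPM, no filter, a mean of at least 5 TPM, median-ratio scaling, a fit of all 28 libraries, a replicate block, averaging or correlating the libraries of a number, a 2-fold threshold, single replicate numbers, and leaving out each library. Leaving out both libraries of a genotype that share a number was added after the data were seen.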

Additional observations from a re-analysis of the deposited data

Results flagged for a closer look

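The genotype difference depended on the replicate number in 9533 genes, by the interaction test of limma on TPM as deposited. This was picked out because the same contrast, ΔCT line 2 minus rxeg1, differed between number 2 and number 1. The rxeg1 libraries numbered 1 stood apart from the other 6 compared libraries, and the part of growth, sampling or library preparation in this was not tested.

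The XEG1 response differed between ΔCT line 2 and rxeg1 in 4 genes by limma, each listed at 0 in both libraries of 1 group. The fitted response differences, on the log2(TPM + 1) scale and dependent on the pseudocount, were 5.99 for Niben101Scf10440g00024 and 3.79 for Niben101Scf00033g07004, both at 0 in the rxeg1 XEG1 libraries. They were -4.72 for Niben101Scf02287g01008, at 0 in the ΔCT line 2 XEG1 libraries, and -3.54 for Niben101Scf05516g04022, at 0 in the rxeg1 mock libraries. The part of failed estimates in these was not tested.

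In 3 cases 1 library stood apart from the other 3 of its genotype, by a gap, as a share of the range of the 4 values, above the critical value of Dixon's test. Chance alone picks out about 1 in 20 groups in this way. For Niben101Scf01070g04015 in rxeg1 the gap was 1 of the range, since mock replicate 2 had 0.193 TPM and the other 3 were listed at 0. For the median of the 828 genes higher in ΔCT line 1 than in wild type, ΔCT line 2 mock replicate 2 lay above the other 3 ΔCT line 2 libraries with a gap of 0.914. For the median of the 5560 genes lower after XEG1 in wild type, ΔCT line 2 mock replicate 1 lay above the other 3 ΔCT line 2 libraries with a gap of 0.944.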

How the results depend on the processing

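Over both treatments 5 genes were called. No filter gave 2, a mean of at least 5 TPM 1, median-ratio scaling 59 and the fit of all 28 libraries 20. A replicate block gave 111, although same-numbered libraries correlated in their deviations at 0.73 only within rxeg1 and between -0.0067 and 0.074 across the genotypes. Averaging the libraries of a number gave 0 (1585 genes at an unadjusted p under 0.05, limma), modelling their correlation 0 (1981), number 2 alone 648 and number 1 alone 12628. With 1 library left out the counts ran from 0 to 11 over both treatments, from 0 to 6 in mock (3 called), from 4 to 10 after XEG1 (4 called) and from 1 to 9 for the response difference (4 called). A lone library was then assumed to vary like the other groups. In mock, the minimum of 5 TPM gave 0 (1563) and the fit of 28 libraries 1. After XEG1, no filter gave 7, scaling 7 and the fit of 28 libraries 1. That fit gave 0 response differences (504). The replicate block gave 3, 5 and 5 in mock, after XEG1 and for the response.

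Without the ΔCT line 2 libraries numbered 1 the counts over both treatments, in mock, after XEG1 and for the response were 0 (2575), 0 (971), 0 (721) and 0 (242), and without those numbered 2 they were 0 (1366), 0 (378), 0 (410) and 0 (266). Without the rxeg1 libraries numbered 1 they were 810, 159, 228 and 35, and without those numbered 2 they were 16121, 9020, 8524 and 33. The causes of these changes were not tested. The list medians of 0.52 and -0.37 kept their sign under all 20 alternatives run, from 0.32 to 0.71 and from -0.48 to -0.24, the values nearest 0 being 0.320 and -0.241 without the rxeg1 libraries numbered 1. The list higher after XEG1 in wild type had -0.132 in number 2 and 0.147 in number 1, and the list lower there -0.104 and 0.0902, and -0.0975 after scaling. The list higher in number 2 of the other genotypes had -0.0944 in number 2, 0.846 in number 1, and -0.0806 and 0.833 without the rxeg1 libraries numbered 1 and 2. The list lower in number 2 had -0.495 without the rxeg1 libraries numbered 2. For single named genes, 180 values kept their call, 105 lost it and 0 changed sign. Genes named within 1 treatment could not be tested within 1 number, with 1 library a group.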

Other observations

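The 3 genes described next lie on 1 scaffold by their identifiers, Niben101Scf01024g04002, Niben101Scf01024g04004 and Niben101Scf01024g04006, which are not consecutive. Each was called lower in ΔCT line 2 within both replicate numbers. The first held 46.1 and 32.5 TPM after XEG1 and 53.8 and 38.1 TPM in mock in ΔCT line 2, against 79.9 and 99.6 TPM after XEG1 and 81.6 and 84.8 TPM in mock in rxeg1. The second averaged 10.7 ± 3.38 TPM in ΔCT line 2 and 24.4 ± 7.64 TPM in rxeg1, and the third 2.84 ± 1.26 TPM in ΔCT line 2 and 7.29 ± 2.42 TPM in rxeg1 (SD, n = 4). In all 3 genes the difference was larger within number 2. The log2 differences within number 2 were -1.36, -1.85 and -1.74 in this order. Within number 1 they were -0.69, -0.38 and -0.50. The 3 genes were chosen after their values were seen.

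Niben101Scf06501g02006, also among the 94, averaged 0.180 ± 0.0650 TPM in ΔCT line 2 and 2.58 ± 1.32 TPM in rxeg1 (SD, n = 4). It averaged 0.189 ± 0.140 TPM in ΔCT line 1, 4.48 ± 3.10 TPM in the Δ90-95/Q786AK791A line, 3.84 ± 1.77 TPM in the remaining construct line, 0.339 ± 0.413 TPM in sobir1/sobir1-like and 0.473 ± 0.353 TPM in wild type.

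Niben101Scf04610g03003, among the 50 called higher in both numbers, held 229 and 178 TPM after XEG1 and 200 and 197 TPM in mock in ΔCT line 2. In rxeg1 it held 90.3 TPM after XEG1 and 125 TPM in mock in number 1, and was listed at 0 in both libraries numbered 2. It was also listed at 0 in 6 of the other 20 libraries, spread over 4 genotypes and both treatments, and had 73.4 to 228 TPM in the rest.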
